A study of Rattus norvegicus with 6 samples.

Results

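The homologous recombination and Fanconi repair genes were followed in c-kit+ bone marrow cells of ACI rats given phenylhydrazine (PHZ) or phosphate-buffered saline (PBS). The set was chosen by function, though with earlier results of these data known, as 39 gene symbols. Of these, 28 were found by symbol among the 17172 genes and loci of the deposited files. The 11 symbols not found were Fancf, Fancg, Fancm, Fanci, Brip1, Rad51b, Xrcc3, Blm, Atr, Topbp1 and Slx4, and loci described by the authors as 8 of these are treated at the end. PHZ oxidises red cells and makes them lyse, which leaves the animal anaemic. In the treated group, 3 ACI rats aged 6 to 8 weeks received 100 mg/kg PHZ into the peritoneum, and in the control group 3 ACI rats of the same age received PBS. Marrow of the hind legs was taken after 36 h, and cells carrying c-kit, a receptor tyrosine kinase of blood progenitors and early erythroid cells, were enriched with an antibody before poly(A) RNA sequencing. The labels give 2 females and 1 male in either group, with 1 library per rat.

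The Fanconi pathway repairs crosslinks between the strands of DNA, mostly when a replication fork runs into them. A core complex of Fanconi proteins, with the ubiquitin-conjugating enzyme UBE2T, attaches ubiquitin to the FANCD2 and FANCI proteins, and USP1 removes it. Homologous recombination then copies the lost sequence from the sister chromatid: the MRN complex and EXO1 cut back the broken end, BRCA1, PALB2 and BRCA2 prepare it for strand exchange, and further factors such as RAD51C, XRCC2 and RAD54 act in the exchange itself. Inherited loss of Fanconi genes causes bone marrow failure, and many of these genes are known to be transcribed most in cells that replicate DNA.

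The libraries held 13196249 to 19492793 expected counts, and all 28 genes passed the expression filter, from 56 counts for Fancc in its lowest library to 4169 counts for Usp1 in its highest. Of the 6 libraries, 3 went against their sex label in the Y-linked genes found (Ddx3y, Eif2s3y and Usp9y). PBS replicate 1 (labelled female) held 210 Y-linked CPM (counts per 1e6 of the library), PHZ replicate 3 (labelled female) held 162 and PBS replicate 2 (labelled male) held 0.0615. Of the others, PHZ replicate 2 (labelled male) held 136.8, PBS replicate 3 held 0 and PHZ replicate 1 held 0.0513. By these counts, unlike by the labels, sex was not balanced between the groups. Whether the sex label or the assignment of these libraries to rats and groups is wrong cannot be told apart from these files. PBS replicate 1 also lay apart from its group: its log2 CPM correlated across genes with PHZ replicate 1 (Pearson's r = 0.917) as closely as with PBS replicates 2 and 3 (0.911 and 0.916), which correlated with each other at 0.951. PHZ replicate 1 in turn correlated with PHZ replicates 2 and 3 at 0.9155 and 0.930, while PHZ replicates 2 and 3 correlated with each other at 0.941. Kit was present in every library, with a mean of 56.8 ± 6.32 CPM for PBS and 53.5 ± 18.9 CPM for PHZ (SD, n = 3). From here on, CPM of single genes are scaled between libraries by edgeR's TMM method. Hba1, which encodes alpha globin, ranged from 65636 to 149289 CPM in PBS and from 53103 to 169996 CPM in PHZ libraries. In such bulk samples, fewer cells of a type and less RNA per cell cannot be told apart.

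PHZ libraries had more transcript of 12 of the 28 repair genes and less of none, at an edgeR adjusted p under 0.05, the threshold for a gene to be called here. Over all 13547 genes tested, 8.99% were called higher and 4.17% lower. Before adjustment 18 of the 28 genes had a p under 0.05, all with a higher estimate in PHZ, against 34.1% of all genes in either direction, and DESeq2 called 15 higher, against 14.1% of all genes, and none lower. The 12 genes that rose were Fancd2, Ube2t and Usp1 of the FANCD2 step, Rad51c, Xrcc2, Rad51ap1 and Rad54l of strand exchange, Mre11a, Nbn and Exo1 of end resection, and the checkpoint kinase genes Chek1 and Chek2. None of the 5 Fanconi core complex genes, the 4 genes of BRCA proteins and partners or the 2 junction nuclease genes was called by edgeR, with 1, 2 and 1 of them at an unadjusted p under 0.05. DESeq2 called Brca1 and Bard1 among these. The median log2 fold change (PHZ over PBS) was 0.51 over the 28 genes and -0.04 over all genes tested, and 24 of the 28 genes had a value above 0, against 47.6% of all genes. In 20 genes every PHZ library lay above every PBS library, against 22.5% of all genes, in 1 gene (Atm) every PHZ library lay below, against 19.2%, and in 7 the groups overlapped.

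These calls depended on single libraries. Without PBS replicate 2, and likewise without PBS replicate 3, no gene of the set was called, as was no gene of all those tested. Before adjustment, 16 and 15 of the 28 genes had a p under 0.05 in these fits, against 24.1% and 23.7% of all genes. Without PHZ replicate 2, and also without PHZ replicate 3, 3 genes of the set were called, Rad51c, Mre11a and Exo1 each time, against 1.55% and 2.68% of all genes called higher. A fit on the 1 PBS and 2 PHZ libraries whose Y-linked counts matched their sex label called no gene, 3 of the 28 had an unadjusted p under 0.05 against 10.5% of all genes, and 23 of the 28 had a log2 fold change above 0 with a median of 0.40. The spread of the PBS rat left alone is assumed there to be like that of the PHZ rats.

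**Figure D1:**
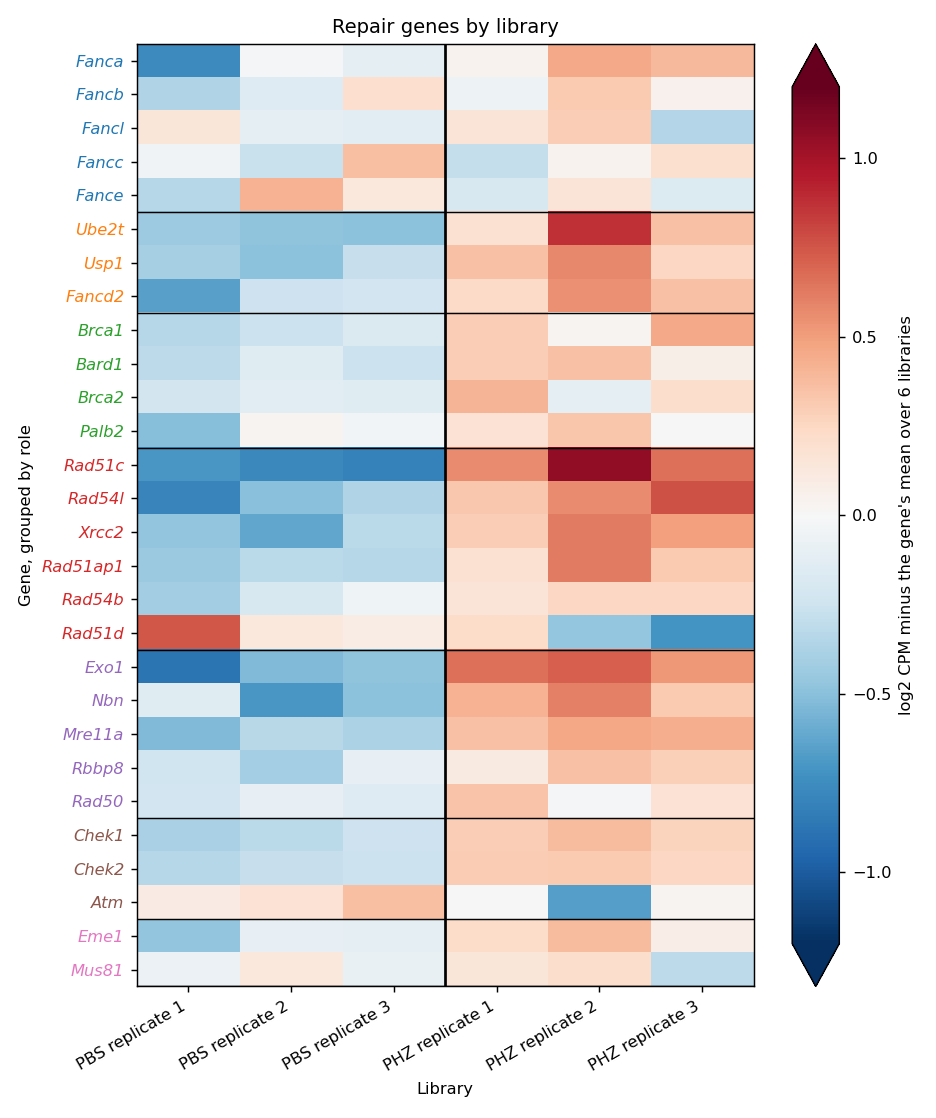
Level of the 28 repair genes in each library, as log2 CPM minus the gene's mean over the 6 libraries (colour), with genes in rows grouped by role and libraries in columns. Most rows turn from blue in the 3 PBS libraries to red in the 3 PHZ libraries, while Rad51d and Atm run the other way and the rows of Fancb, Fancl, Fancc, Fance and Mus81 are mixed.

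**Figure D2:**
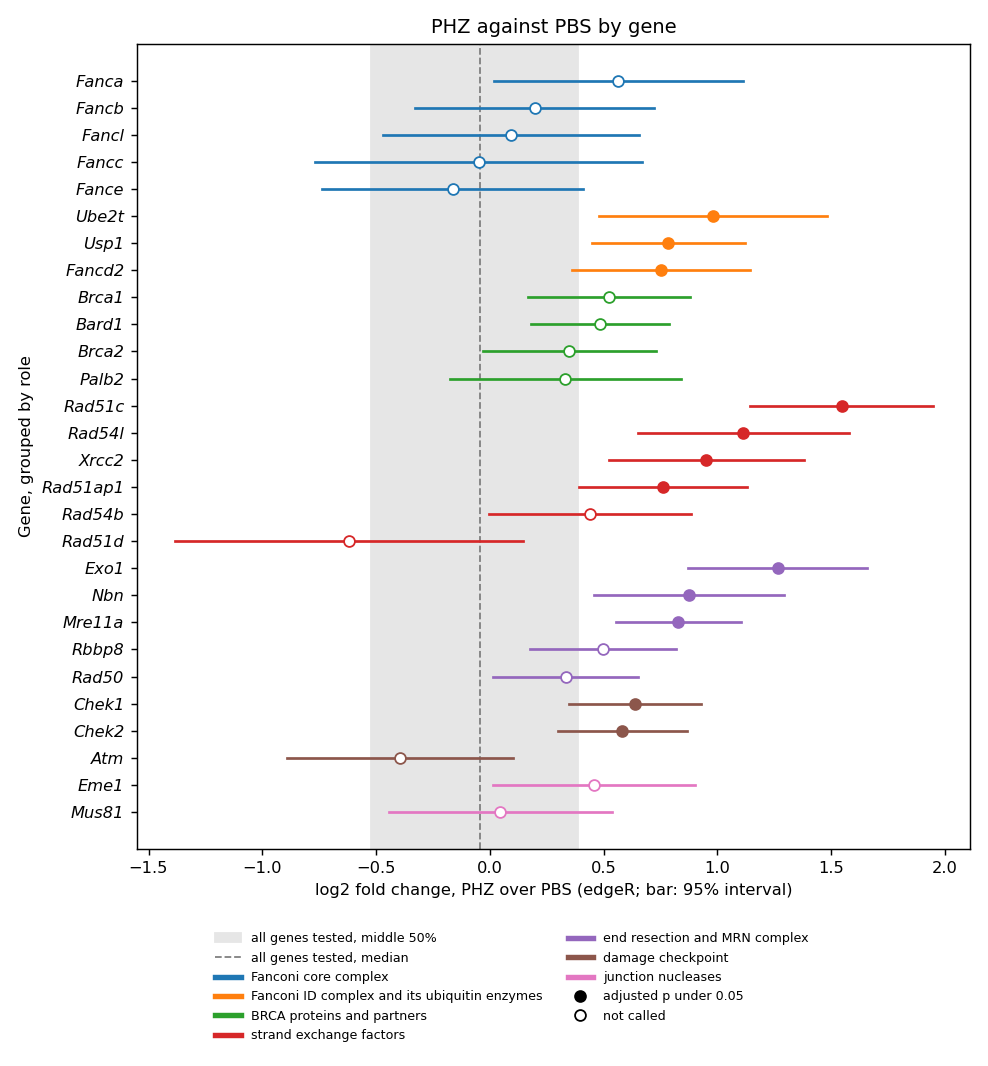
Log2 fold change of each repair gene, PHZ over PBS, with its 95% interval, coloured by role, filled where the edgeR adjusted p is under 0.05. The grey band holds the middle 50% of all genes tested and the dashed line is their median of -0.04; the 12 filled points all lie to the right of the band, from 0.58 for Chek2 upward.

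Promoter sequence was examined because many replication and repair genes are known to be controlled by E2F factors. RefSeq promoters (GRCr8) were matched for 24 of the 28 genes, and the 250 bases before the start were searched on both strands for the E2F site as TTTCCCGC, TTTCGCGC, TTTGCCGC or TTTGGCGC, for the CHR element of cell cycle promoters as TTTGAA or TTCGAA, and for CCAAT. An E2F match stood in 6 of 24 promoters (25%, 95% Wilson interval 12% to 44.9%), those of Fancc, Usp1, Bard1, Rad51d, Atm and Chek1, against 3.42% of the 8676 promoters of tested genes and 1.81% of all 27457 promoters of this length. Among them Usp1 and Chek1 rose, so that 2 of the 9 matched genes that rose and 4 of the 15 not called had an E2F match. CCAAT stood in 7 of 24 promoters (29.2%, against 36.2% of tested genes and 34.3% of all promoters), 4 of the 9 genes that rose and 3 of the 15 not called, and the CHR element in 2 of 24 (8.33%, against 12% and 17.3%), both not called. With the 50 bases after the start included, the CHR element stood in 4 of 24 (16.7%). That is above the 13.5% of tested genes and below the 19.5% of all promoters. In this longer window E2F stood in 8 of 24 (33.3%, against 4.22% of tested genes and 2.25% of all promoters). CCAAT stood there in 8 of 24 (33.3%, against 38.4% and 37.7%). The shares of genes that rose and of those not called were not tested against each other. No match of one motif overlapped a match of another in these 24 promoters.

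Below are the 250 bases before the start of 5 genes, 5′ to 3′ on the gene's own strand, with matches of the 3 motifs in capitals. Usp1 and Chek1 are shown as genes that rose and hold an E2F match (from -31 to -24 and from -28 to -21, counted back from the start), Rad51d as a gene with an E2F match (from -14 to -7) whose estimate was lower in PHZ, and Rad51c and Exo1 as those with the largest rises, which hold no E2F match in this window. In Exo1 the capitals are CCAAT on the other strand, at -151 to -147 and -144 to -140. In GRCr8 the stretches lie at chr5:118702806-118703055 (plus strand, Usp1), chr8:44629844-44630093 (minus, Chek1), chr10:68321903-68322152 (minus, Rad51d), chr10:72728465-72728714 (minus, Rad51c) and chr13:90341768-90342017 (plus, Exo1).
Usp1: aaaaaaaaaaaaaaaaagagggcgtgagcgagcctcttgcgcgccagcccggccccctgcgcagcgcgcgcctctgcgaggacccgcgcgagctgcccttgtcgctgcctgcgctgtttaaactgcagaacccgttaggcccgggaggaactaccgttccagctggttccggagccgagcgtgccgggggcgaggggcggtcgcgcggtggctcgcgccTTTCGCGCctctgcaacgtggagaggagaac
Chek1: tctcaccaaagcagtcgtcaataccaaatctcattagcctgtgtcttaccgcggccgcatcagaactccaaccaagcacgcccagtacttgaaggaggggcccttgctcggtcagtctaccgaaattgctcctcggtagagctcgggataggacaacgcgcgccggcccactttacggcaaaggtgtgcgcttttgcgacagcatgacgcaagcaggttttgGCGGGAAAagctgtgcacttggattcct
Rad51d: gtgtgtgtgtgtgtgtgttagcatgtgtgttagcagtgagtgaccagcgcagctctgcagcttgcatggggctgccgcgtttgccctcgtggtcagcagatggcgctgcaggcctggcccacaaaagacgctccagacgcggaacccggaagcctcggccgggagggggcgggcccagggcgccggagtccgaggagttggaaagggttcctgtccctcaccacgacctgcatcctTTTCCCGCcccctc
Rad51c: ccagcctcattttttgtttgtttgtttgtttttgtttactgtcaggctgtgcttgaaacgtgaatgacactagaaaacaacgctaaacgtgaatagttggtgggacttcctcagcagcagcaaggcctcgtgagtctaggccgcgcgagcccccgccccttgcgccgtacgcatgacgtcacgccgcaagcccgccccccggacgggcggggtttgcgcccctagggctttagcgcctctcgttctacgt
Exo1: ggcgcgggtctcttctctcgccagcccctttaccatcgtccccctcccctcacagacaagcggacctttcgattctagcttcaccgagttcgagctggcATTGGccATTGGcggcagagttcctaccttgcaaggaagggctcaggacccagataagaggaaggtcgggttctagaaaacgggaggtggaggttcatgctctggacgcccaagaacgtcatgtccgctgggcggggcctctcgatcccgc

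The 5 core complex genes found, which encode subunits of the ubiquitin ligase, showed no call in either direction, and their median log2 fold change was 0.09. Fanca had 19.0, 32.0 and 30.1 CPM in PBS replicates 1 to 3 and 33.3, 44.5 and 42.3 CPM in PHZ replicates 1 to 3. All its PHZ values were above all its PBS values, but PHZ replicate 1 and PBS replicate 2 lay close together (log2 fold change 0.56, SE 0.23, edgeR adjusted p = 0.138). Fancl, the subunit with the ligase activity, had 9.84, 8.21 and 8.12 CPM in PBS and 9.91, 11.0 and 6.97 CPM in PHZ libraries. The groups overlapped for Fancl, as they did for Fancb, Fancc and Fance. Fance, a subunit that binds FANCD2, had 9.60, 16.4 and 13.3 CPM in PBS and 10.6, 13.6 and 10.9 CPM in PHZ libraries, the lowest fold change of the 5. The 95% interval of the log2 fold change ran from -0.33 to 0.72 for Fancb, from -0.77 to 0.67 for Fancc, from -0.74 to 0.41 for Fance and from -0.47 to 0.65 for Fancl, which leaves room for changes in both directions. For Fancb, Fancc and Fancl it reaches above the estimate of the called gene Chek2 (0.58). The core complex genes were not tested against the genes of other steps.

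The 3 genes found of the step that follows the core complex all rose, where 8.99% of all genes were called higher. Fancd2, whose protein receives the ubiquitin, had 44.0, 58.4 and 58.9 CPM in PBS and 81.3, 101.7 and 88.4 CPM in PHZ libraries. The groups were well apart, and the rise was 1.68-fold (log2 SE 0.16, edgeR adjusted p = 0.0348). Ube2t, the conjugating enzyme, had 12.2, 11.8 and 11.7 CPM in PBS and 18.8, 30.5 and 21.2 CPM in PHZ libraries. Its PBS libraries were nearly level while PHZ replicate 2 stood above the other PHZ libraries, and the rise was 1.97-fold (log2 SE 0.21, edgeR adjusted p = 0.0334). Usp1, the deubiquitinase, had 118, 110 and 128 CPM in PBS and 198, 232 and 184 CPM in PHZ libraries. It rose 1.72-fold (log2 SE 0.14, edgeR adjusted p = 0.0238), and without PBS replicate 1 Ube2t was no longer called while Usp1 and Fancd2 were.

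Genes of the BRCA proteins and their partners had higher estimates in PHZ without passing the threshold, with log2 fold changes from 0.33 to 0.52. Brca1, a ubiquitin ligase that promotes recombination, had 24.1, 25.4 and 27.1 CPM in PBS and 37.3, 31.1 and 41.7 CPM in PHZ libraries (edgeR adjusted p = 0.0617). Its partner Bard1 had 49.6, 55.8 and 51.8 CPM in PBS and 76.1, 79.0 and 64.8 CPM in PHZ libraries (edgeR adjusted p = 0.0522). For both genes all PHZ libraries were above all PBS libraries, and both were called by DESeq2. Brca2, which acts at the start of strand exchange, had 34.9, 37.3 and 36.8 CPM in PBS and 54.1, 37.5 and 47.1 CPM in PHZ libraries. In CPM, PHZ replicate 2 of Brca2 thus lay at the level of the PBS libraries (edgeR adjusted p = 0.174). Palb2, which links BRCA1 to BRCA2, had 7.96, 11.7 and 11.1 CPM in PBS and 12.9, 14.4 and 11.4 CPM in PHZ libraries, so that PHZ replicate 3 lay below PBS replicate 2 (edgeR adjusted p = 0.309).

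The widest range lay among the strand exchange factors, from a log2 fold change of -0.62 to 1.54. Rad51c, a subunit of the complexes that assist strand exchange, had 16.5, 15.7 and 15.3 CPM in PBS and 39.8, 56.2 and 42.5 CPM in PHZ libraries. Its 3 PBS libraries were almost equal, and with a 2.92-fold rise (log2 SE 0.17, edgeR adjusted p = 0.0154) it had the largest fold change of the 28 genes. Xrcc2, another such subunit, had 8.02, 7.22 and 8.91 CPM in PBS and 13.7, 17.2 and 15.8 CPM in PHZ libraries, a 1.93-fold rise (log2 SE 0.18, edgeR adjusted p = 0.0258). Rad51d, whose protein binds XRCC2 and RAD51C in the same complex, had 17.1, 11.1 and 10.9 CPM in PBS and 11.9, 7.37 and 6.13 CPM in PHZ libraries. The groups overlapped in Rad51d, since PHZ replicate 1 lay above PBS replicates 2 and 3 (edgeR adjusted p = 0.219, 95% interval of the log2 fold change -1.38 to 0.14).

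Rad54l, a DNA motor protein that acts on chromatin, had 7.72, 9.43 and 10.4 CPM in PBS and 16.9, 19.9 and 22.9 CPM in PHZ libraries, and rose 2.16-fold (log2 SE 0.19, edgeR adjusted p = 0.0231). Its relative Rad54b had 6.93, 8.15 and 8.97 CPM in PBS and 10.4, 11.1 and 11.1 CPM in PHZ libraries, apart but not called (edgeR adjusted p = 0.149). Rad51ap1, which stimulates strand invasion, had 19.6, 21.3 and 21.0 CPM in PBS and 30.3, 41.1 and 33.3 CPM in PHZ libraries, a 1.69-fold rise (log2 SE 0.15, edgeR adjusted p = 0.0298). PHZ replicate 2 was the highest PHZ library for Rad51c, Xrcc2 and Rad51ap1, and PHZ replicate 3 for Rad54l.

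All 5 genes of end resection had every PHZ library above every PBS library in CPM, against 22.5% of all genes. Of these 5 genes 3 rose, against 8.99% of all genes called higher. Exo1, the exonuclease of long-range resection, had 9.24, 11.8 and 12.2 CPM in PBS and 27.0, 28.2 and 24.5 CPM in PHZ libraries. The PHZ libraries were close to each other, and the rise was 2.40-fold (log2 SE 0.16, edgeR adjusted p = 0.0169). Mre11a, the nuclease of the MRN complex (Mre11 in RefSeq), had 30.7, 35.1 and 33.9 CPM in PBS and 56.4, 60.9 and 59.8 CPM in PHZ libraries, with little spread in either group (1.77-fold, log2 SE 0.12, edgeR adjusted p = 0.0184). Nbn, the subunit that recruits ATM, had 76.9, 52.4 and 60.2 CPM in PBS and 113, 129 and 106 CPM in PHZ libraries, with PBS replicate 1 high in its group, and rose 1.84-fold (log2 SE 0.17, edgeR adjusted p = 0.0287). Rad50, the third subunit of that complex, had 48.7, 53.3 and 51.4 CPM in PBS and 72.4, 56.2 and 64.6 CPM in PHZ libraries and was not called (log2 fold change 0.33, 95% interval 0.01 to 0.65, edgeR adjusted p = 0.134). The difference between Rad50 and its partners was not tested. Rbbp8, which encodes the resection factor CtIP, ran from 46.5 to 57.5 CPM in PBS and from 66.4 to 78.9 CPM in PHZ libraries (edgeR adjusted p = 0.055), and DESeq2 called it.

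Of the checkpoint kinases, the downstream pair rose and Atm did not. Chek1, the kinase that ATR activates at stalled forks, had 19.6, 20.5 and 21.6 CPM in PBS and 31.5, 33.5 and 31.0 CPM in PHZ libraries. Chek2, the kinase that ATM activates at breaks, had 19.0, 19.9 and 20.1 CPM in PBS and 29.7, 29.9 and 28.6 CPM in PHZ libraries. They were among the steadiest of the 28 genes within groups, with coefficients of variation of 3.08% and 2.46% for Chek2 in PBS and PHZ, and their rises were 1.56-fold and 1.497-fold (edgeR adjusted p = 0.0260 and 0.0297). Atm, the kinase that signals breaks, had 56.0, 58.8 and 67.3 CPM in PBS and 52.1, 32.9 and 53.6 CPM in PHZ libraries. All PHZ values were below all PBS values, PHZ replicate 2 by far the most, and the gene was not called (log2 fold change -0.39, 95% interval -0.89 to 0.10, edgeR adjusted p = 0.226).

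The nuclease genes found were not called. Eme1, the partner of MUS81 in cutting joint molecules, had 8.51, 11.1 and 10.9 CPM in PBS and 13.8, 15.5 and 12.6 CPM in PHZ libraries, apart with PBS replicate 1 lowest (edgeR adjusted p = 0.139). Mus81 itself overlapped, at 10.2, 11.6 and 10.02 CPM in PBS and 11.9, 12.4 and 8.58 CPM in PHZ libraries (log2 fold change 0.05, 95% interval -0.44 to 0.53).

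**Figure D3:**
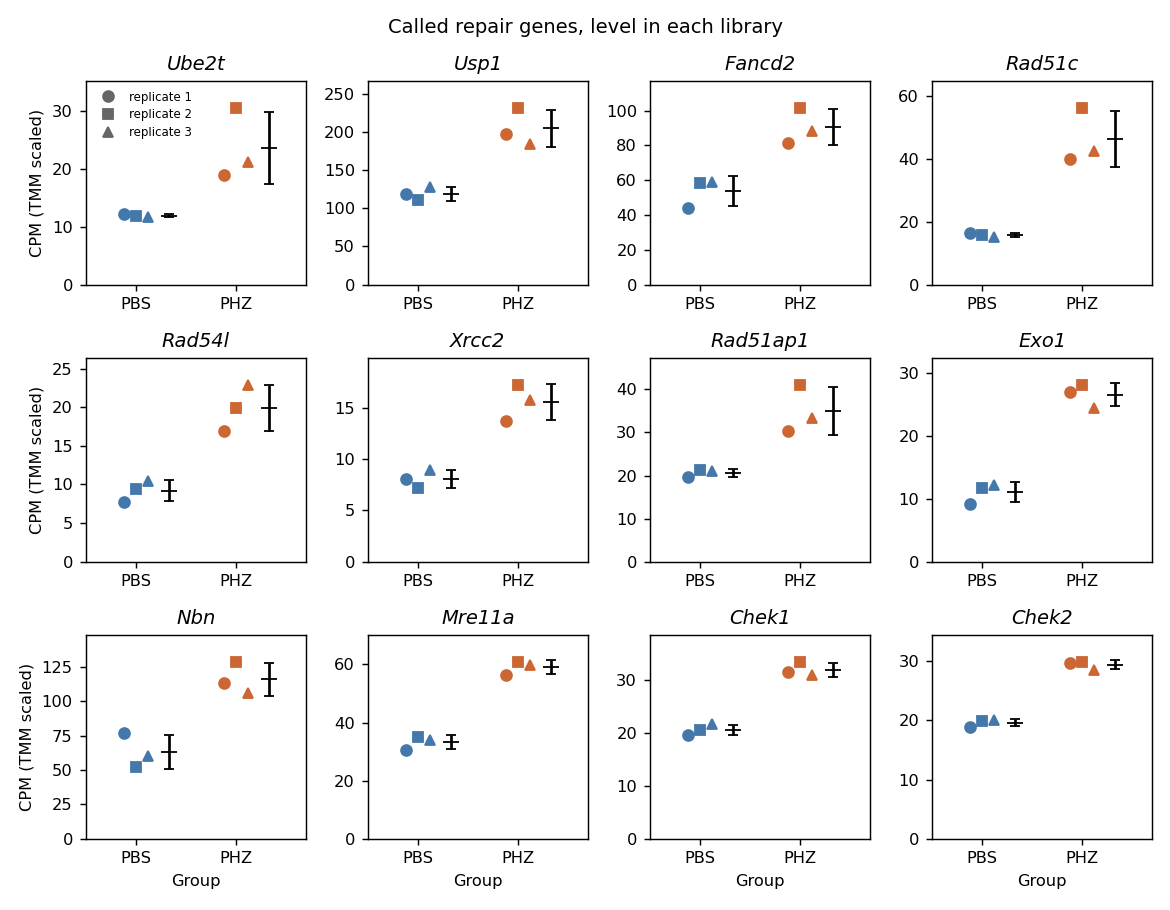
CPM of the 12 repair genes that rose, by group, with 1 symbol per replicate number and the mean ± SD of the 3 libraries beside them. In every panel the 3 PHZ points lie above the 3 PBS points, and PHZ replicate 2 (square) is the highest in all panels but that of Rad54l.

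Per transcript length, in the authors' FPKM (fragments per kilobase of transcript, scaled to library size), the 28 genes covered a wide range of levels. Usp1 was highest in both groups, at 34.3 ± 1.13 FPKM in PBS and 56.7 ± 4.68 FPKM in PHZ (SD, n = 3), followed by Nbn at 25.2 ± 5.51 and 44.4 ± 3.54 FPKM. Fancc was lowest in both, at 1.65, 1.41 and 2.00 FPKM in PBS and 1.43, 1.46 and 1.83 FPKM in PHZ libraries, which overlapped. In the order of FPKM, Rad51c moved from place 11 in PBS to place 4 in PHZ, Rad54l from 24 to 14 and Exo1 from 22 to 13, while Rad51d went from 17 to 27 and Atm from 12 to 22. Many neighbours in this order, such as Fancl (5.55 ± 0.82 FPKM) and Rad51d (5.32 ± 1.62 FPKM) in PBS, differed by less than their spread. FPKM and CPM did not always place a library alike. In FPKM, Rad50 overlapped, with PHZ replicate 2 at 9.08 against 9.39 and 10.33 in PBS replicates 1 and 2. For Brca2, PHZ replicate 2 had 6.08 FPKM, against 3.57, 4.89 and 4.76 FPKM in PBS libraries. The authors' deposited table marks 3 of the 28 genes as Up, Rad51c, Rad54l and Exo1, with log2 ratios of 1.47, 1.06 and 1.07, and none as Down. These 3 have the largest log2 ratios of the 28 genes in that table, and Ube2t comes next at 0.90 without a mark. Over all 17172 genes and loci, the authors' deposited table marks 546 (3.18%) as Up and 1183 (6.89%) as Down, so its marks are mostly Down, whereas edgeR called 1218 genes higher and 565 lower. The marks and the edgeR calls rest on different thresholds and different sets (17172 genes and loci against 13547 genes tested), so their counts are not like for like.

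Other genes of the pathway were a list of 40, of which 28 were found and tested. Of these, 7 rose (25%, against 8.99% of all genes) and none fell, with a median log2 fold change of 0.47. Without PHZ replicate 2, PBS replicate 2 or PBS replicate 3 no gene of the list was called higher, without PHZ replicate 3 there was 1 and without PBS replicate 1 there were 3, where 7.43% of all genes were called higher in the last of these fits. Rad18, the ubiquitin ligase of damaged forks, rose 1.81-fold (edgeR adjusted p = 0.0224), with 18.8, 23.0 and 20.1 CPM in PBS and 38.3, 40.4 and 33.4 CPM in PHZ libraries. Subunits of RPA, which coats single-stranded DNA, rose as well, with Rpa3 1.87-fold and Rpa1 1.503-fold higher, and Rtel1, a helicase that unwinds recombination intermediates, rose 1.64-fold. Of 20 further checkpoint and chromatin response genes tested, 5 rose (25%) and none fell. Clspn, the mediator of CHEK1 activation, rose 2.28-fold, with 53.1, 52.2 and 52.5 CPM in PBS and 105.1, 136.4 and 117.8 CPM in PHZ libraries. Mdc1, a scaffold at breaks, rose 1.89-fold, Rad1, a subunit of a checkpoint clamp, 1.92-fold and Tipin, a fork protection factor, 1.87-fold.

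Other repair pathways, mismatch repair apart, were described in the same way, beside 8.99% of all genes called higher and 4.17% called lower. Of 9 non-homologous end joining genes tested, 2 rose (22.2%) and 1 fell, with a median log2 fold change of -0.07. The Ku subunit genes Xrcc6 and Xrcc5 were 1.77-fold and 1.40-fold higher, and Polm, a polymerase of end joining, fell, being 2.68-fold lower (26.5, 46.5 and 45.7 CPM in PBS against 12.4, 14.2 and 17.7 CPM in PHZ). Ddb1 was the 1 nucleotide excision repair gene of 15 that rose (6.67%), and 4 of 18 base excision repair genes rose (22.2%), Parp2, Parp1, Ung and Tdg. The medians of the last pair of lists were 0.39 and 0.43. Of 18 p53 target genes tested, 1 fell, Rrm2b (1.72-fold lower), none rose, and the median was -0.57. No list was tested against another.

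**Figure D4:**
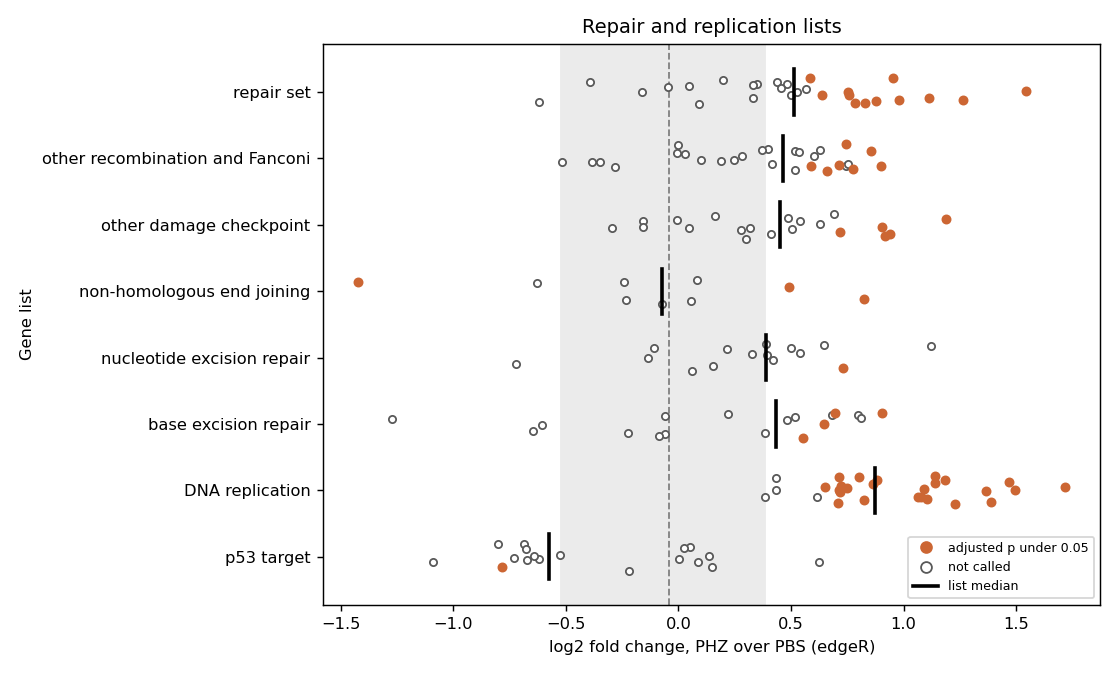
Log2 fold change, PHZ over PBS, of each tested gene in the repair set and in other lists (1 point per gene, orange where the edgeR adjusted p is under 0.05, black bar at the list's median; vertical scatter within a row carries no value). The grey band and the dashed line give the middle 50% and the median of all genes tested. The repair set has its median at 0.51, end joining at -0.07, DNA replication at 0.87 and p53 targets at -0.57.

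Genes of DNA replication moved with the repair genes: 24 of 28 rose, the median log2 fold change was 0.87, and Orc1, Mcm6, Mcm2 and Orc6 rose 3.29-fold, 2.58-fold, 2.15-fold and 2.77-fold. Pcna, the sliding clamp of replication, rose 1.57-fold. Markers of cell types moved too. Among all genes tested, 8.99% were called higher and 4.17% lower. Of 11 erythroid markers tested 7 rose, with a median log2 fold change of 1.23, among them Klf1, from 173.6 to 203 CPM in PBS and from 367 to 683 CPM in PHZ. Of 11 B lineage markers tested 7 fell, and their summed level was 600 to 753 CPM in PBS and 131 to 234 in PHZ libraries, and 5 of 9 T and NK lineage markers fell (329 to 544 against 206 to 233.5). Of 9 neutrophil markers tested 1 fell (4993 to 8693 against 2526 to 4299), of 10 monocyte and macrophage markers none was called and 1 had an unadjusted p under 0.05 (1311 to 3673 against 1184 to 1925), and of 6 stem and progenitor markers 2 fell. None of the markers found was at 0 in all libraries. The summed erythroid level, mostly Hba1, overlapped between the groups (76168 to 149849 against 71111 to 168300). The part of replication and of cell types in the change of the repair genes was not tested.

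For 8 of the 11 genes not found by symbol, the files hold loci that the authors numbered as additional and whose deposited description names the protein: 26 loci in all, from 1 for FANCG to 6 for SLX4. Several loci of a protein carry the same description, 8 of the 26 were at 0 in some library, and how reads were divided between them is not known, so the counts were summed per protein and tested among all genes. This step was chosen after seeing the data. The loci of BLM, the helicase that unwinds joint molecules and assists resection, had 77.1, 66.9 and 72.3 CPM in PBS and 186, 188 and 157.5 CPM in PHZ libraries. The groups were far apart, and BLM was the 1 of 8 proteins called, with a 2.46-fold rise (log2 SE 0.13, edgeR adjusted p = 0.0153), where 9.01% of all genes were called higher in this fit. It was not called without PBS replicate 2 (edgeR adjusted p = 0.0964) or without PBS replicate 3 (0.109), and was called without each of the other libraries, with log2 fold changes of 1.25 to 1.38 over the 6 fits.

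The summed loci of TOPBP1, an activator of ATR, had 59.1, 77.2 and 81.4 CPM in PBS and 96.9, 98.4 and 93.5 CPM in PHZ libraries, and those of FANCI, the partner of FANCD2, had 12.7, 17.1 and 15.7 CPM in PBS and 22.9, 18.8 and 21.3 CPM in PHZ libraries. For both, the PHZ libraries were above the PBS libraries without a call (edgeR adjusted p = 0.108 for each). ATR and FANCG were likewise apart and not called (edgeR adjusted p = 0.148 and 0.181). FANCM, BRIP1 and SLX4 overlapped between the groups, with log2 fold changes of 0.30, 0.11 and -0.32. Fancf, Rad51b and Xrcc3 were matched by neither symbol nor description and are not analysed here.

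**Figure D5:**
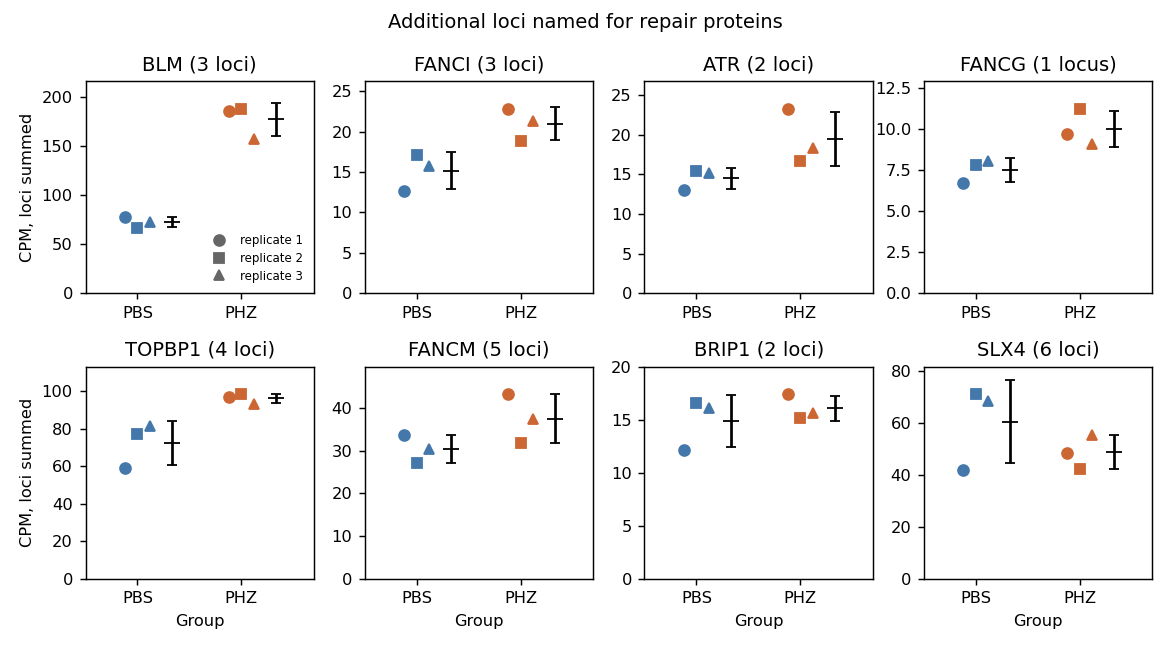
CPM of the loci summed for each of 8 repair proteins, by group, with 1 symbol per replicate number and the mean ± SD of the 3 libraries beside them. The BLM loci run from 66.9 to 77.1 CPM in PBS and from 157.5 to 188 CPM in PHZ, while SLX4, BRIP1 and FANCM overlap.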

How the data were processed

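Poly(A) RNA of c-kit+ marrow cells was sequenced in 6 rats, 3 per group. Tools listed in the submitters' processing notes are RSEM, HISAT and GATK (build rn6), with no roles or versions. Whether counting used strand is not given in the sources used here. The authors deposited, per the file headers, an expected count (an estimated count) and an FPKM value per gene and library, and a table with mean FPKM per group, a log2 ratio and a score named Probability, which is not used here. Genes not listed in a library were set to 0. Expected counts were rounded and tested with edgeR 4.0.16 (R 4.3.3; TMM, filterByExpr, robust glmQLFit, glmQLFTest; treatment as the only term), with Benjamini-Hochberg adjustment over 13547 genes. The SE of a log2 fold change was its size divided by the root of the F statistic. Y-linked and summed marker levels are per library total; other CPM are scaled by TMM. DESeq2 1.42.0 and limma 3.58.1 served as alternatives.

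Simulated data with 13339 genes gave calls for 14 of 100 genes set to a 2-fold difference and 74 of 100 set to a 4-fold difference, with 8 of 96 calls false. Libraries of a group differed by more than sampling noise (chi-square per degree of freedom 48.3 to 176.5; between groups 84.1 to 260), so none were merged. The labels give separate rats, and p-values set the difference between groups against the spread between libraries of a group. The members, their role groups and the other lists were chosen with earlier results of these data known. Named genes are all members, up to 4 called genes with the smallest p from each other list, and Kit, Klf1, Hba1, Mcm6 and Pcna. Gene names outside the authors' symbols came from a RefSeq table of GRCr8, and promoter coordinates are of GRCr8, not rn6. Results of some genes of the lists are not reported here.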

Additional observations from a re-analysis of the deposited data

How the results depend on the processing

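Of all genes, 1783 were called, 68.3% of them higher in PHZ. DESeq2 called 3421 (56.7% higher). The sex label as a covariate left 928, but 3 libraries went against that label, so this fit does not adjust for sex. No gene was called with a replicate block (4641 at an unadjusted p under 0.05) or without the 3 libraries against their sex label (1480). Leaving out 1 library gave 0 to 1744 called genes. Of the 28 repair genes 12 rose. With the replicate block 0 did (17 at an unadjusted p under 0.05), and leaving out 1 library gave 0 to 12. With the sex label as a covariate 10 did, without Nbn and Chek2 (edgeR adjusted p = 0.053 and 0.0537). Without the libraries against their label the median log2 fold change of the 28 genes was 0.40. For the other pathway genes 7 rose, 0 with the replicate block, 4 with the sex label, 0 without the libraries against their label, and 0 to 7 leaving out 1 library. The block leaves fewer residual degrees of freedom, and the cause of any of these changes was not tested. Same-numbered libraries of the groups had correlated deviations of 0.21, 0.057 and 0.0045, so the numbers were not treated as pairs. Upper-quartile scaling, no filter on low counts and leaving out globin genes each called the same 12 repair genes, DESeq2 added Brca1, Bard1 and Rbbp8, and limma on log2(FPKM + 1) left out Chek1 and Chek2. Over 420 values of single genes, 344 kept their side of the threshold, 72 lost and 4 gained a call. Signs changed in 9, among 5 genes that were never called. With 3 rats a group, changes under about 2-fold are recovered poorly.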

Other observations

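The loci of a single protein did not move as one. Among the 24 of 26 additional loci that passed the filter, 3 were higher in PHZ by themselves and none lower. In the same fit 8.99% of all genes tested were called higher and 4.17% lower. The largest locus described as BLM had 55.7, 61.0 and 59.2 CPM in PBS and 172.6, 165 and 135.6 CPM in PHZ libraries, while another BLM locus had 17.6, 0 and 5.11 CPM in PBS and 0, 0 and 18.9 CPM in PHZ libraries. A locus described as FANCM had 17.3, 8.85 and 5.96 CPM in PBS and 17.2, 0 and 0.0766 CPM in PHZ libraries, while a further FANCM locus had 3.83, 4.43 and 2.29 CPM in PBS and 7.26, 11.2 and 10.9 CPM in PHZ libraries (higher, edgeR adjusted p = 0.0377). One TOPBP1 locus also rose, with 20.4, 19.7 and 25.4 CPM in PBS and 33.1, 37.9 and 35.3 CPM in PHZ libraries (edgeR adjusted p = 0.0334), while the TOPBP1 loci as a sum were not called. These loci were named after their values were seen.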
